A study of Mus musculus with 45 samples.

Results

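The genes described here are 10 members of the fibroblast growth factor (FGF) pathway in mouse neuroepithelial organoids: the ligand genes Fgf4, Fgf8, Fgf15 and Fgf17, and 6 genes that are commonly read as outputs of ERK signalling, namely Dusp6, Spry2, Spry4, Spred1, Etv4 and Etv5. They were taken from the gene count table by symbol, each symbol mapped to 1 Ensembl identifier, and all 10, of 54532 genes in the table, were followed through every library. RA and FGF signalling are often described as opposed in the early embryo, and the comparisons below ask how these transcripts differed between organoids with and without RA.

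FGF ligands are secreted proteins that bind FGF receptors on the cell surface, and the receptors pass the signal through RAS, RAF and MEK to the kinase ERK. ERK activity switches on a set of genes that includes inhibitors of the same pathway. Sprouty and Spred proteins act between the receptor and RAF, the phosphatase Dusp6 removes phosphate from ERK itself, and Etv4 and Etv5 are transcription factors of the ETS family that carry the response to other genes. In mouse embryonic stem cells Fgf4 is the main FGF that the cells make for themselves, and it pushes them out of the naive state. Fgf8, Fgf15 and Fgf17 are known from the patterning of the neural tube, where Fgf8 marks the boundary of midbrain and hindbrain.

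Organoids were grown clonally from wild-type mouse embryonic stem cells of the R1 line in Matrigel and N2B27 medium. Samples were taken at day 2 (48 h after seeding) and then 8 h, 18 h and every 12 h up to 78 h later, either untreated or with 250 nM all-trans retinoic acid (RA) from day 2 on. Each of the 15 conditions had 3 biological replicates, which gave 45 RNA-seq libraries with 17298632 to 39688686 counts (median 25923745). No group carried a transgene or a deletion, and all came from 1 cell line, so that p-values measure the spread between replicate cultures of that line. One label gives the dose in µM and slightly different late times, and the sample titles and methods were followed.

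Libraries differed in ways that the groups do not explain. The 4 Y-chromosome genes examined averaged 22.6 to 89.9 CPM (counts scaled to library size, TMM-normalised) in 39 libraries. In the remaining 6 (replicate 3 of RA 8 h, the whole untreated 30 h group, and RA 30 h replicate 1 and replicate 3) this average was only 1.22 to 3.73 CPM. By library number, RA 30 h replicates 2 and 3, day 2 replicate 3, untreated 54 h replicate 3 and all libraries at 66 h and 78 h belong to a later series. RA at 30 h, and 78 h against day 2, therefore go partly with the library series and cannot be fully told apart from it. The same holds where the RA effect at 66 h or 78 h is set against that at earlier times. As a check of the labels, the RA-degrading enzyme gene Cyp26a1 was at a mean of 276 CPM in RA-treated and 2.75 CPM in untreated organoids at 18 h, and the RA receptor gene Rarb at 44.5 and 0.782 CPM. Of 6 neural progenitor markers, all tested at 18 h, Sox1, Pax6 and Hes5 were called higher with RA, with Sox1 at 29.4 against 5.34 CPM. At that time 8.17% of all genes tested were called higher. Nes rose by less than the fold required (log2FC 0.27), and Sox2 (-0.16, adjusted p = 0.012) and Sox3 (-0.12, adjusted p = 0.13) did not pass the test.

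A gene was called when edgeR's quasi-likelihood test gave a Benjamini-Hochberg adjusted p under 0.01 over all genes tested and a log2 fold change (log2FC) above 1 or below -1. The words rose and fell are used where the adjusted p was under 0.01. At day 2 the members differed widely in level per kilobase of exon. Etv5 was at 109 CPM per kb and Fgf4 at 88.8, followed by Spry2 at 48.3 and Dusp6 at 25.3. Spred1 and Etv4, at 19.2 and 19.1 CPM per kb, did not differ beyond their spread. Spry4 was at 15.3, and the other ligands were lower, with Fgf15 at 5.26, Fgf17 at 4.05 and Fgf8 at 0.625 CPM per kb.

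**Figure D1:**
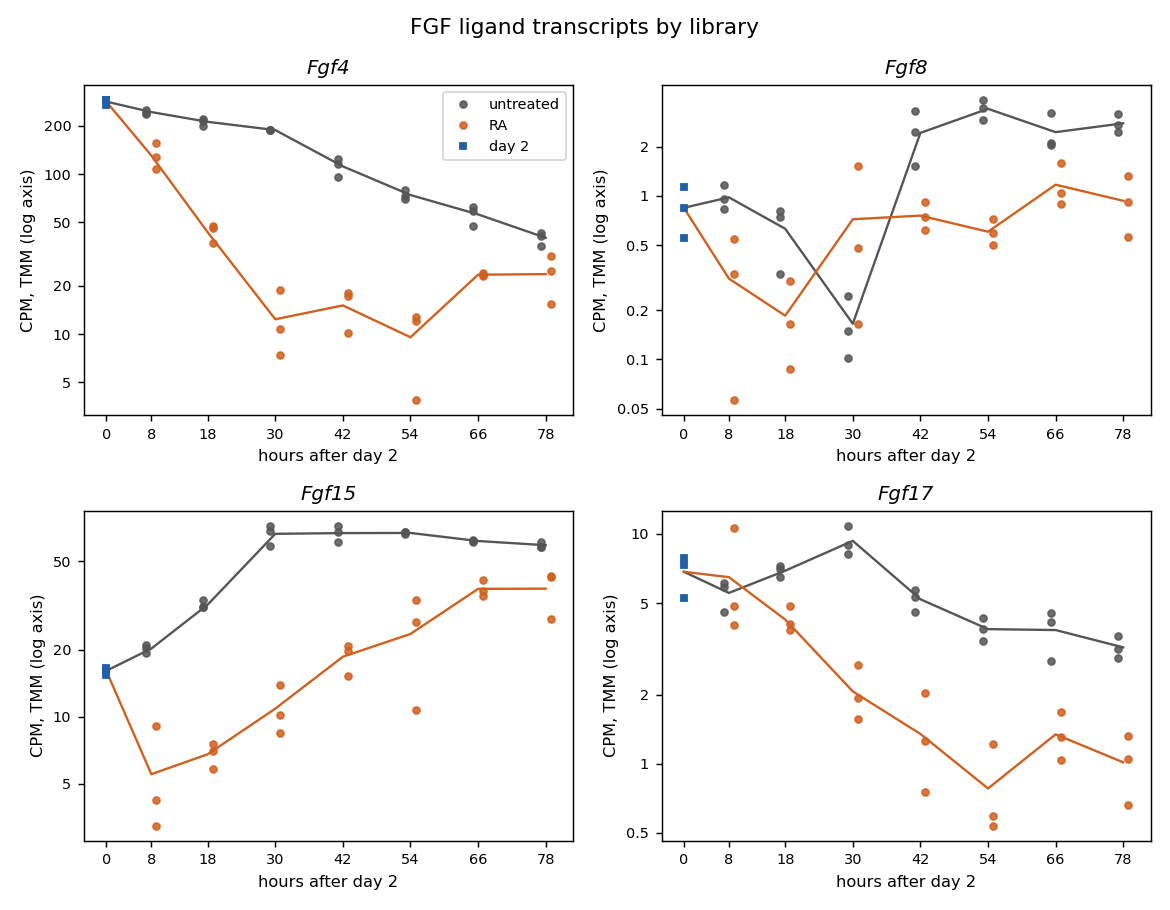
Level of 4 FGF ligand transcripts in each of 45 libraries (TMM-normalised CPM, log axis) against hours after day 2, with blue squares for day 2, grey points for untreated and orange points for RA-treated organoids, and lines through the means. Fgf4 fell from a mean of 284 CPM at day 2 in both arms and was lower with RA at each time, whereas Fgf15 was at 16.1 CPM at day 2 and at 30 h was at 66.5 CPM untreated and 10.9 CPM with RA.

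Fgf4, the ligand of the pluripotent cell, had the highest level per kilobase of the 4 ligands at day 2. Its 3 day 2 libraries held 291, 291 and 270 CPM. At 8 h the untreated libraries held 239, 242 and 251 CPM and the RA-treated libraries 129, 107 and 156 CPM, so that the groups did not overlap. Fgf4 fell with RA at this time by 0.89 on the log2 scale (SE 0.13, adjusted p = 0.0079), which was short of the fold required for a call. At 18 h the untreated libraries were at 214, 200 and 222 CPM against 37.0, 47.2 and 45.8 CPM with RA. The gap was far wider than the spread of either group, with a log2FC of -2.28 (SE 0.08, adjusted p = 1.9e-10).

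At 30 h the levels of Fgf4 were 189, 187 and 189 CPM untreated and 7.42, 19.0 and 10.8 CPM with RA, a difference of 15.3-fold (log2FC -3.94, SE 0.32, adjusted p = 0.00024). RA replicate 2, from the later series and high in Y-chromosome genes, was the highest of its group. The untreated level was lower at the later times, with a mean of 112 CPM ± 14.4 (SD, n = 3) at 42 h, 74.0 ± 4.89 at 54 h, 55.99 ± 7.77 at 66 h and 40.0 ± 3.99 at 78 h. With RA the lowest mean was 9.56 CPM ± 4.94 at 54 h, where replicate 1 was at 3.88 CPM, well below the others, and the highest library at 12.8 CPM. At 78 h the RA-treated libraries held 30.9, 24.8 and 15.5 CPM against 41.3, 43.2 and 35.5 CPM untreated, and the groups still did not overlap (log2FC -0.75, SE 0.18, adjusted p = 0.0064). The adjusted p was above 0.01 without untreated replicates 1 or 2 or RA replicate 2 and by DESeq2 (up to 0.031 over the alternatives).

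Fgf15, the mouse counterpart of human FGF19, lies 31287 bases downstream of Fgf4 on the same strand of chromosome 7 (Fgf4 at 144847367 to 144865243 and Fgf15 at 144896531 to 144900953, GRCm38). Its course differed from that of Fgf4. Day 2 libraries held 16.6, 15.5 and 16.2 CPM, and untreated libraries 19.4, 20.4 and 21.03 CPM at 8 h and 31.2, 31.1 and 33.5 CPM at 18 h. Against day 2, untreated organoids at 18 h were called higher (log2FC 1.01, SE 0.07, adjusted p = 1.1e-07). RA-treated libraries at 18 h held 5.80, 7.52 and 7.01 CPM and were called lower than day 2 (log2FC -1.24, SE 0.11, adjusted p = 4.7e-08). Fgf15 thus moved in opposite directions in the arms over the first 18 h.

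The untreated mean of Fgf15 then stayed between 59.1 and 67.1 CPM from 30 h to 78 h. With RA the means were 10.9 CPM at 30 h, 18.6 at 42 h, 23.6 at 54 h, 37.6 at 66 h and 37.7 at 78 h. The RA effect had a log2FC of -2.63 (SE 0.20, adjusted p = 0.00016) at 30 h and of -0.65 (SE 0.13, adjusted p = 0.0022) at 78 h. At 54 h the RA-treated libraries were spread from 10.7 to 33.5 CPM, with replicate 1 lowest, as it was for Fgf4. Fgf15 shares 761 exonic bases with an antisense gene, Gm26793, whose count did not exceed 60 in any library. The strand setting of the counting is not given in the sources used here, so that reads of both genes could not be separated, but Fgf15 itself had 71 to 2151 counts.

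Fgf17, a relative of Fgf8, was low. Day 2 libraries held 7.35, 7.89 and 5.27 CPM. At 8 h the arms overlapped, with 4.58, 5.90 and 6.12 CPM untreated and 3.9996, 4.87 and 10.6 CPM with RA, where the highest value was replicate 3 (log2FC 0.23, SE 0.36, adjusted p = 0.72). Without that library the log2FC was -0.31 (SE 0.17, adjusted p = 0.18). At 18 h Fgf17 fell with RA, from 7.22, 7.03 and 6.49 CPM to 4.05, 3.82 and 4.85 CPM (log2FC -0.69, SE 0.13, adjusted p = 0.00055). It was called lower at the 5 later times, with a log2FC of -2.18 (SE 0.25) at 30 h and -1.65 (SE 0.23, adjusted p = 0.00017) at 78 h, when the libraries held 1.05, 1.33 and 0.664 CPM with RA and 3.59, 2.89 and 3.14 CPM untreated.

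Fgf8 was near the limit of detection in the first 30 h, with 1 to 48 counts per library at 8, 18 and 30 h. A floor of 3 counts is 0.0756 to 0.173 CPM in these libraries, and floors cover counting error only. It passed the filter on low counts at 8 h, when untreated libraries held 0.826 to 1.16 CPM and RA-treated libraries 0.0565 to 0.546 CPM (log2FC -1.56, SE 0.55, adjusted p = 0.11), but not at 18 h or 30 h. The arms did not overlap at 18 h either, with 0.333 to 0.812 CPM untreated and 0.0880 to 0.303 CPM with RA. At 30 h they did, at 0.150, 0.244 and 0.102 CPM untreated and 0.164, 1.52 and 0.476 CPM with RA, and the RA mean was the higher one. The highest of these was RA replicate 2, from the later series and high in Y-chromosome genes, whereas the untreated group was low in them. One fit of all 45 libraries called Fgf8 higher at 30 h (log2FC 2.14, SE 0.64, adjusted p = 0.0055), and DESeq2 did not (adjusted p = 0.096). At later times Fgf8 was more abundant. Untreated libraries held 1.52, 3.29 and 2.45 CPM at 42 h and 3.42, 3.85 and 2.92 CPM at 54 h, against 0.744, 0.614 and 0.911 CPM and 0.499, 0.721 and 0.589 CPM with RA. The groups did not overlap at either time, and Fgf8 was called lower with RA at 42 h (log2FC -1.68, SE 0.32), 54 h (log2FC -2.49, SE 0.24), 66 h (log2FC -1.08, SE 0.27) and 78 h (log2FC -1.57, SE 0.27, adjusted p = 0.00058). The call at 66 h (adjusted p = 0.0072) was lost without untreated replicate 2 (log2FC -0.84, adjusted p = 0.035) or 3 (log2FC -1.18, adjusted p = 0.013) and without RA replicate 1 (log2FC -1.01, adjusted p = 0.016) or 2 (log2FC -0.91, adjusted p = 0.035).

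**Figure D2:**
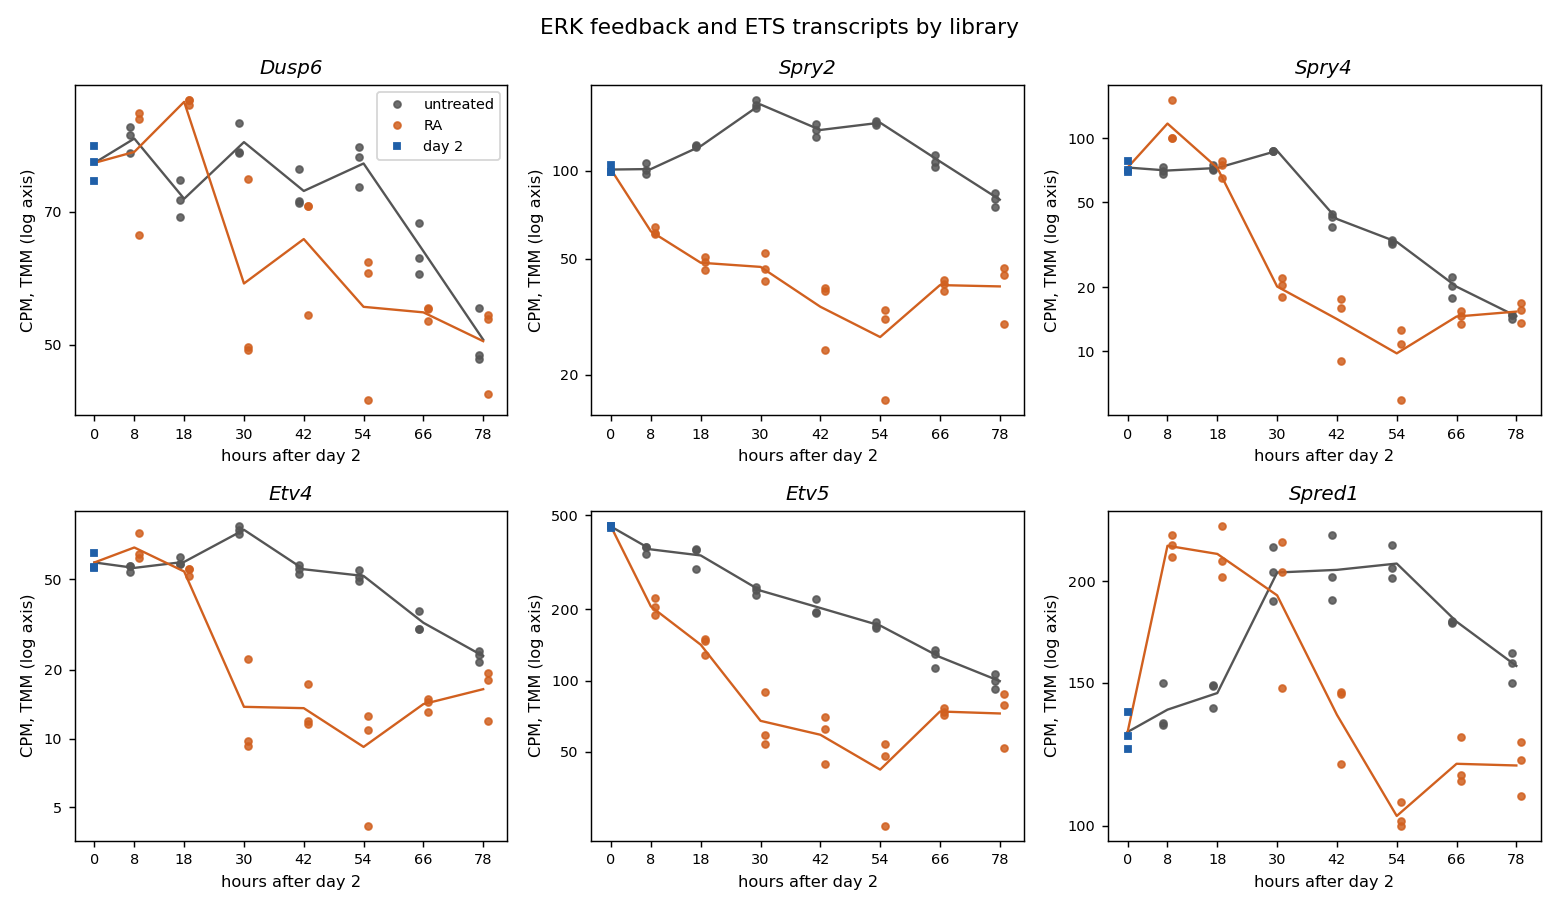
Level of 6 ERK output transcripts in each of 45 libraries (TMM-normalised CPM, log axis) against hours after day 2, in the colours used for the ligands. The means of Spry2 and Etv5 were lower with RA from 8 h, those of Spry4 from 30 h to 66 h, and Spred1 was higher with RA at 8 h and 18 h and lower from 42 h.

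Of the ERK outputs, Spry2 and Etv5 were lower with RA at 8 h. Spry2, an inhibitor that acts upstream of RAF, was at 101, 97.0 and 106 CPM untreated and at 60.6, 64.0 and 61.2 CPM with RA at 8 h (log2FC -0.69, SE 0.07, adjusted p = 0.0013). At 18 h the values were 120, 122 and 121 CPM against 45.8, 48.7 and 50.6 CPM. The replicates lay within a few CPM of each other and the arms were far apart (log2FC -1.32, SE 0.05, adjusted p = 7.2e-10). The widest difference was at 54 h, with 146, 144 and 148 CPM untreated and 16.4, 31.2 and 33.2 CPM with RA (log2FC -2.46, SE 0.19, adjusted p = 1.7e-06). At 78 h it was at 46.6, 44.0 and 29.8 CPM with RA and 79.8, 83.8 and 75.0 CPM untreated, a log2FC of -0.98 (SE 0.13, adjusted p = 0.0001) that was just short of a call. It was called lower without untreated replicate 3 (log2FC -1.04), RA replicate 1 (log2FC -1.11) or RA replicate 2 (log2FC -1.05).

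Etv5, an ETS factor, had the highest level per kilobase of all members at day 2, when its libraries held 452, 442 and 449 CPM. Untreated libraries held 344, 366 and 366 CPM at 8 h and RA-treated libraries 204, 189 and 224 CPM (log2FC -0.79, SE 0.08, adjusted p = 0.0017). At 18 h it was at 357, 297 and 361 CPM against 128, 150 and 147 CPM, and it was called lower (log2FC -1.24, SE 0.08, adjusted p = 5.2e-08). The untreated mean was lower at each later time, down to 99.5 CPM ± 7.48 at 78 h. The RA-treated mean was lowest at 54 h, at 42.0 CPM ± 15.6, and was 72.6 CPM ± 18.5 at 78 h, where the difference no longer passed the test (log2FC -0.45, SE 0.15, adjusted p = 0.026).

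Spry4 and Etv4 came later. Spry4, a second Sprouty inhibitor, was at 67.9, 73.3 and 70.6 CPM untreated and 99.9, 100.4 and 151 CPM with RA at 8 h, higher in 3 of 3 RA-treated libraries, but the log2FC of 0.75 (SE 0.16) did not pass the test (adjusted p = 0.031). Without RA replicate 3, the highest library, the spread was smaller and the test was passed (log2FC 0.52, SE 0.06, adjusted p = 1.4e-05). At 18 h the arms overlapped, with 71.0, 71.6 and 74.9 CPM untreated and 65.2, 78.1 and 74.6 CPM with RA. The 95% interval of that log2FC ran from -0.14 to 0.16. By 30 h the levels were 87.0, 87.4 and 87.6 CPM against 18.0, 22.1 and 20.4 CPM, a difference of 4.37-fold (log2FC -2.13, SE 0.11, adjusted p = 3.5e-05). At 78 h the arms overlapped again, at 14.2, 14.8 and 14.7 CPM untreated and 15.7, 16.9 and 13.6 CPM with RA (95% interval of the log2FC -0.13 to 0.28).

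Etv4, the other ETS factor, was at 57.2, 53.8 and 57.3 CPM untreated and 64.4, 62.3 and 80.1 CPM with RA at 8 h. The arms did not overlap, but the log2FC of 0.31 (SE 0.11) did not pass the test (adjusted p = 0.10). The levels at 18 h were 58.1, 58.3 and 62.4 CPM untreated and 51.6, 55.2 and 55.4 CPM with RA (log2FC -0.13, SE 0.06, adjusted p = 0.061). At 30 h it was at 82.2, 79.1 and 85.9 CPM against 9.75, 22.3 and 9.29 CPM, with RA replicate 2 again the highest RA-treated library (log2FC -2.59, SE 0.33, adjusted p = 0.0015). Without that replicate the log2FC was -3.13 (SE 0.09). Etv4 was called lower up to 66 h, and at 78 h the log2FC was -0.48 (SE 0.14, adjusted p = 0.017).

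Dusp6 and Spred1 behaved otherwise. Dusp6, the ERK phosphatase, varied by 1.83-fold between the highest and the lowest condition mean, the least of the 10 genes. It was at 72.2, 69.1 and 75.8 CPM untreated and 92.8, 92.9 and 91.6 CPM with RA at 18 h, where it rose (log2FC 0.36, SE 0.05, adjusted p = 5e-05) while Spry2 and Etv5 fell. At 30 h the RA-treated libraries held 49.7, 76.1 and 49.4 CPM against 87.7, 81.5 and 81.3 CPM, with replicate 2 apart from the others. The log2FC was -0.53 (SE 0.17, adjusted p = 0.057) with all libraries and -0.77 (SE 0.07, adjusted p = 2.1e-08) without replicate 2. Dusp6 fell with RA at 54 h (log2FC -0.54, SE 0.11, adjusted p = 0.0015) and 66 h (log2FC -0.24, SE 0.06, adjusted p = 0.0056), and at 78 h the arms overlapped (95% interval of the log2FC -0.19 to 0.18). The adjusted p at 54 h was 0.011 without untreated replicate 2.

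Spred1, a membrane-bound inhibitor of RAS and RAF signalling, was at 150, 134 and 133 CPM untreated and 214, 228 and 222 CPM with RA at 8 h. The arms did not overlap and Spred1 rose (log2FC 0.69, SE 0.08, adjusted p = 0.0026), as it did at 18 h (log2FC 0.58, SE 0.06, adjusted p = 3.8e-06). At 30 h the arms overlapped, with 205, 148 and 223 CPM with RA and 220, 189 and 206 CPM untreated. From 42 h on the sign was turned. Spred1 fell with RA at 42 h (log2FC -0.60, SE 0.09), was called lower at 54 h, when it was at 100.01, 101 and 107 CPM against 208, 222 and 202 CPM (log2FC -1.05, SE 0.06, adjusted p = 1.8e-07), and was still lower at 78 h (log2FC -0.41, SE 0.06, adjusted p = 0.00032).

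RefSeq (GRCm38.p6) gave the sequence from 250 bases before to 50 bases after the start of 5 of the 10 genes. Fgf4 and Spry2 are shown because they fell with RA from 8 h, and Spred1 because it rose at 8 h. Capitals mark CCGGAA, an extended form of the ETS core GGAA, and the nuclear receptor half-site AGGTCA on either strand. The core GGAA by itself was neither marked nor counted. CCGGAA was in 14.9% and AGGTCA in 16.3% of 32851 mouse promoters of this length, and the motifs were searched without regard to overlap with others. Spry2 held 1 of each, close to the start, and the listed windows of Fgf4, Spred1, Dusp6 and Etv5 held neither CCGGAA nor AGGTCA.
Fgf4 (chr7:144861136-144861435, plus strand): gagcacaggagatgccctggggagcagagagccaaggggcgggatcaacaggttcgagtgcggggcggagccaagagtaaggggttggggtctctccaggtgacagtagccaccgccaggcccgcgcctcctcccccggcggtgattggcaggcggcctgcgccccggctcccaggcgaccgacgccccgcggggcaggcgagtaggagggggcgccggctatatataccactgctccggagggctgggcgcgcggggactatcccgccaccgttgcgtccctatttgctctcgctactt
Spry2 (chr14:105896770-105897069, minus strand): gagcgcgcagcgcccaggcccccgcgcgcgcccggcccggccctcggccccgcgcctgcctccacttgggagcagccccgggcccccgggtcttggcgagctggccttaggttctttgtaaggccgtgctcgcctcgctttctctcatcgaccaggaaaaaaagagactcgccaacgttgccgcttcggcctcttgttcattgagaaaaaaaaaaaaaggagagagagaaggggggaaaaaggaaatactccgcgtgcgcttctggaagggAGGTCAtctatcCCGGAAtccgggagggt
Spred1 (chr2:117120821-117121120, plus strand): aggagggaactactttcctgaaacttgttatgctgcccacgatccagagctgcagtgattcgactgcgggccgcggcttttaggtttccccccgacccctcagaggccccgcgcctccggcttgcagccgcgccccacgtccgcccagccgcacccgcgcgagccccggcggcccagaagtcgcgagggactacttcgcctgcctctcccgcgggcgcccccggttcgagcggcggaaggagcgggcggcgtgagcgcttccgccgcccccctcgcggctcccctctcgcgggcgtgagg

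**Figure D3:**
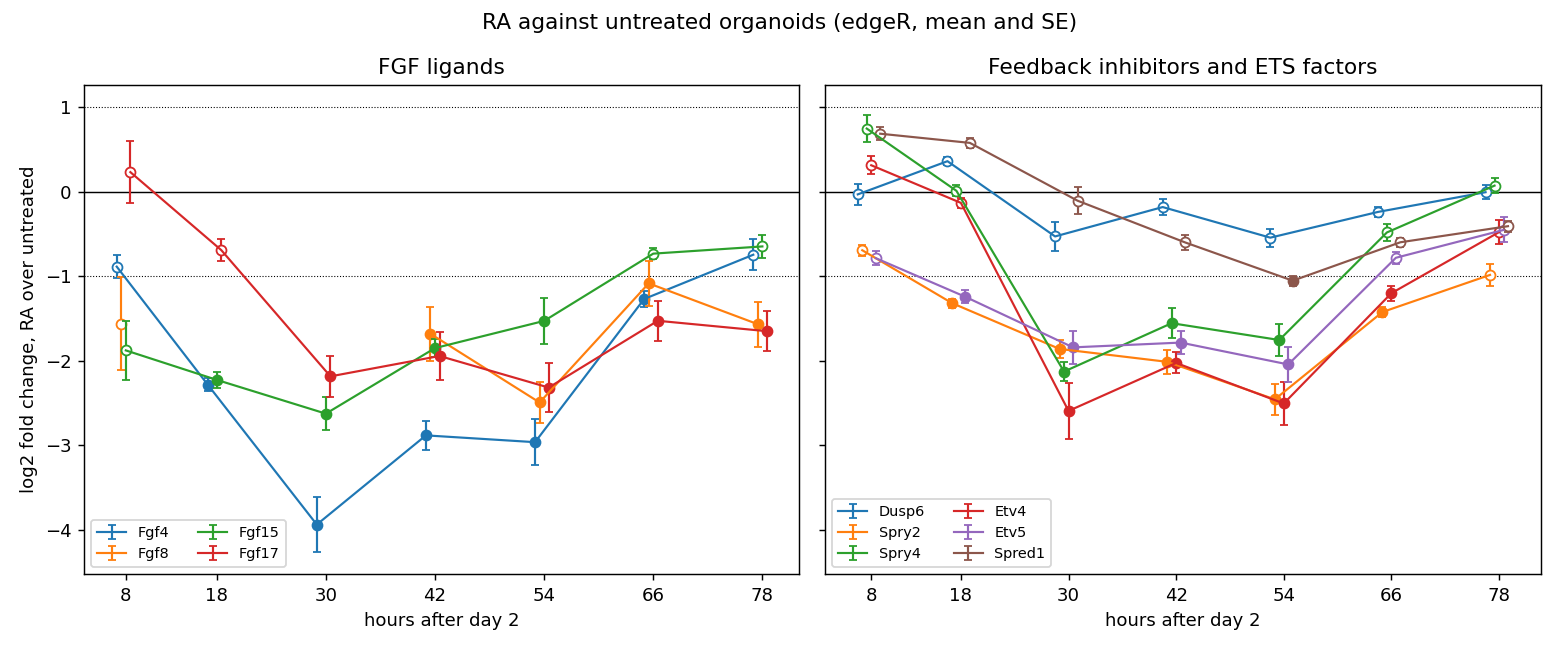
Log2 fold change of RA-treated over untreated organoids at 7 times for the 4 ligands (left) and the 6 ERK outputs (right), with the SE of the edgeR fit as bars, filled points where the gene was called and dotted lines at -1 and 1. At 54 h, 9 of 10 genes were called lower, and at 78 h 2 were.

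Counted over the 10 members, the calls widened from 18 h to 54 h and narrowed after it. All libraries at 66 h and 78 h are of the later series, so that the narrowing cannot be told apart from the series. At 8 h edgeR called 0 members, and DESeq2 called 1 (Fgf15, lower), although 3 members were higher and 5 lower at an unadjusted p under 0.05. Of all 15836 genes tested, 1.26% were called higher and 0.537% lower at that time. Shares over all genes are of calls throughout. None is given for an unadjusted p under 0.05, or between the arms for an adjusted p under 0.01 alone, so those member counts have no background beside them. The adjusted p of Fgf4, Spry2, Etv5 and Spred1 at 8 h passed 0.01 without each untreated replicate in turn (up to 0.052, 0.015, 0.021 and 0.030), and for all but Spry2 also without RA replicate 1 and for Fgf4 and Spred1 without RA replicate 2, while each log2FC kept its sign. Leaving out RA replicate 3, the library low in Y-chromosome genes, 2 members were called lower, Fgf4 (log2FC -1.04, SE 0.08, adjusted p = 3.3e-08) and Fgf15. Fgf15 was at 4.21, 3.23 and 9.10 CPM with RA and 19.4, 20.4 and 21.03 CPM untreated, with a log2FC of -1.88 (SE 0.34, adjusted p = 0.017) in all libraries and -2.43 (SE 0.13, adjusted p = 4e-10) without replicate 3.

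At 18 h 4 of 9 tested members were called lower, Fgf4, Fgf15, Spry2 and Etv5, when 2.76% of all tested genes were called lower and 8.17% higher. The median log2FC of the tested members was -0.69, and that of all genes tested was 0.02. At 30 h 7 of 9 were called lower, with 2.48% of all genes lower and 5.98% higher, and the members' median was -2.13 against 0.04. The 7 genes were also called in each fit that left out 1 library. RA replicate 1 is the only RA-treated library that shares the earlier series and the low Y-chromosome genes with the untreated group, and against these its Fgf4 log2FC was -4.68. That arm has no replicate, its spread was taken from the untreated libraries, and so it says nothing on how stable the calls are.

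At 42 h 8 of 10 members were called lower, all but Dusp6 and Spred1, beside 4.96% of all genes lower and 7.49% higher. At 54 h the count was 9 of 10, all but Dusp6, beside 5.99% lower and 7.17% higher, and the median log2FC was -2.18 against 0.0018 over all genes. It was 5 of 10 at 66 h (Fgf4, Fgf8, Fgf17, Spry2 and Etv4), beside 4.44% lower and 7.06% higher, where the other 5 also fell by less than the fold required. Of those 5, the adjusted p rose above 0.01 in one fit of all 45 libraries for Dusp6 (0.18), Spry4 (0.033) and Fgf15 (0.011). It did so for Dusp6 (up to 0.029) without each library but untreated replicate 1, and for Spry4 (up to 0.015) without untreated replicates 1 or 2 or RA replicate 3. At 78 h 2 of 10 remained called, Fgf8 and Fgf17, beside 4.03% lower and 7.66% higher, and 6 of 10 had an adjusted p under 0.01. At 18 h and each later time neither edgeR nor DESeq2 called a member higher on the 6 libraries of that time. At an unadjusted p under 0.05, 2 members were higher at 18 h and 0 at the later times.

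**Figure D4:**
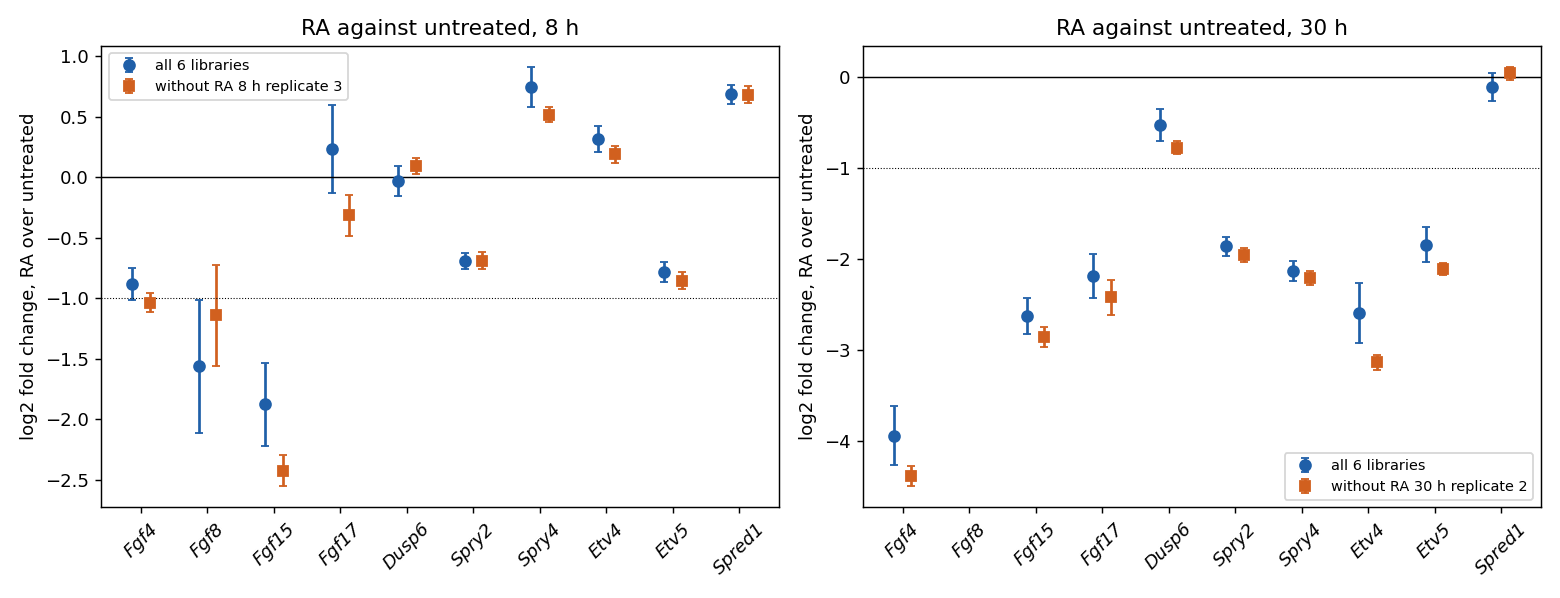
Log2 fold change (RA over untreated, with SE) of the members at 8 h and 30 h, with all 6 libraries (blue circles) and without the RA-treated library whose Y-chromosome genes differed from the rest of its group (orange squares), with a dotted line at -1. Fgf4 at 30 h was at -3.94 with all libraries and at -4.39 without RA replicate 2, and Fgf8 was not tested at 30 h.

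The change of the RA effect with time was examined with an interaction term fitted to the 12 libraries of each pair of times, where a gene was called at an adjusted p under 0.01 in either direction. Between 8 h and 18 h the effect on Fgf4 (log2 difference 1.40, SE 0.17, adjusted p = 0.0023) and Spry2 (0.63, SE 0.08, adjusted p = 0.0032) was weaker at 8 h, 2 of 10 members beside 0.341% of all genes. Both calls were lost without any 1 of the untreated 8 h libraries, untreated 18 h replicate 3 or RA 18 h replicate 3 (adjusted p = 0.0103 to 0.0116 for Fgf4), and that of Spry2 also without each of the other 18 h libraries (0.0103 to 0.0192 in all), whereas Spry4 was called without RA 8 h replicate 3 (0.52, adjusted p = 0.0027). Between 30 h and 18 h, 3 of 10 were called beside 3.1% of all genes. Spry4 (-2.11, SE 0.13, adjusted p = 2.5e-06), Etv4 (-2.43, SE 0.35, adjusted p = 0.0013) and Fgf17 (-1.46, SE 0.27, adjusted p = 0.0061) were lower with RA to a greater extent at 30 h. All 30 h libraries but RA replicate 2 were low in Y-chromosome genes, and the 18 h libraries were not. RA 30 h replicates 2 and 3 are also of the later series, so that time cannot be fully told apart from these differences between libraries. The call of Fgf17 was lost on omission of each library but RA 30 h replicates 2 and 3 (adjusted p = 0.0104 to 0.0240), and Fgf4 was called without RA 30 h replicate 1 (-1.41, adjusted p = 0.0057). Without RA 30 h replicate 2, the same test called 9 of 10 members, all but Fgf8, and each difference was negative. Dusp6 was at -1.13 (SE 0.08), Etv5 at -0.86 (SE 0.11) and Spred1 at -0.53 (SE 0.10). For Spred1 this was the loss of an increase at 18 h (log2FC 0.58) and not a decrease at 30 h. Its RA 30 h replicates 1 and 3 were at 205 and 223 CPM, against 220, 189 and 206 CPM untreated. The calls over all genes also varied, from 309 to 2146 with 1 library left out, against 538 with all libraries.

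Between 78 h and 18 h, 6 of 10 members were called beside 27.9% of all genes, so that the count stands in a large background. The 18 h libraries are of the earlier series and the 78 h libraries of the later one, so time and series cannot be told apart in this difference. The effect on Fgf4 (1.52, SE 0.22) and Fgf15 (1.56, SE 0.19) and on Etv5 (0.77, SE 0.19) was smaller at 78 h, that on Fgf17 (-0.98, SE 0.26) was larger, and those on Spred1 (-1.01, SE 0.09, adjusted p = 2e-07) and Dusp6 (-0.39, SE 0.10) were positive at 18 h and not at 78 h. Leaving out 1 library ended the call of Fgf17 (adjusted p up to 0.0224) in all but 3 cases (RA 18 h, untreated 78 h and RA 78 h replicate 2), that of Dusp6 (up to 0.0393) in all but 3 (untreated 18 h replicate 3 and RA 78 h replicates 1 and 2), and that of Etv5 (up to 0.0126) without untreated 18 h replicates 1 or 3 or RA 18 h replicate 1. Spry2 was called without RA 78 h replicate 3 (0.52). A comparison of 78 h with 42 h, whose libraries are likewise of the earlier series, was added after the values had been seen. There 6 of 10 members were called, beside 12.6% of all genes, each with a smaller decrease at 78 h: Fgf4 (2.12, SE 0.29), Spry4 (1.61, SE 0.23), Etv4 (1.53, SE 0.21), Etv5 (1.31, SE 0.23), Fgf15 (1.18, SE 0.20) and Spry2 (1.01, SE 0.22). The call of Spry2 was lost without untreated 78 h replicates 1 or 3 or RA 78 h replicates 1 or 2 (adjusted p up to 0.0148). For Fgf17 the log2 difference was 0.28 (SE 0.40), and for Fgf8 it was 0.10 with a 95% interval of -0.85 to 1.05.

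Both arms were next set against day 2, whose libraries the comparisons share. In untreated organoids at 18 h 1 of 10 members was called higher, Fgf15, beside 3.2% of all genes. By edgeR or DESeq2 0 members were called lower, beside 1.35% of all genes, and 2 members were lower at an unadjusted p under 0.05. The call of Fgf15 was close to the fold required and was lost without day 2 replicate 2 (log2FC 0.98) or untreated replicate 3 (log2FC 0.97). Fgf4 and Etv5 fell by 0.40 and 0.38 on the log2 scale, and Spry2 rose by 0.29. In RA-treated organoids at 18 h 5 of 10 were called lower, beside 5.71%, namely Fgf4 (log2FC -2.70, SE 0.08), Fgf8 (-2.17, SE 0.49), Etv5 (-1.65, SE 0.06), Fgf15 (-1.24, SE 0.11) and Spry2 (-1.05, SE 0.06). Fgf8 had only 2, 4 and 7 counts in these RA-treated libraries, around the floor of 3, against 20, 11 and 27 at day 2. It passed the filter on low counts through the day 2 libraries alone, so its call carries little weight. By edgeR and by DESeq2 0 members were called higher, beside 14.5% of all genes, and 2 members were higher at an unadjusted p under 0.05. Spred1 rose by less than the fold required (log2FC 0.73, SE 0.06, adjusted p = 1.4e-08), and Dusp6 rose by 0.23.

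By 78 h most members were below day 2 in both arms. Untreated organoids had 5 of 10 called lower, beside 13.6% of all genes, and 2 of 10 higher, beside 20.3%. Fgf4 (log2FC -2.78, SE 0.07), Spry4 (-2.27, SE 0.07), Etv5 (-2.13, SE 0.06), Etv4 (-1.32, SE 0.07) and Fgf17 (-1.05, SE 0.17) were lower, and Fgf15 (1.92, SE 0.06) and Fgf8 (1.73, SE 0.26) were higher. The call of Fgf17 was lost without day 2 replicates 1 (-0.998) or 2 (-0.95) or untreated replicate 2 (-0.97). With RA 6 of 10 were called lower, beside 14.5%, and 1 of 10 higher, beside 22.9%. Fgf4 (-3.54, SE 0.17), Fgf17 (-2.71, SE 0.25), Etv5 (-2.59, SE 0.14), Spry4 (-2.22, SE 0.09), Etv4 (-1.81, SE 0.14) and Spry2 (-1.30, SE 0.13) were lower and Fgf15 (1.26, SE 0.15) was higher. Fgf8, called higher in untreated organoids, had a log2FC of 0.15 with RA (95% interval -0.66 to 0.97). All 78 h libraries are of the later series and 2 of the 3 day 2 libraries of the earlier one, so that time and series cannot be told apart here.

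**Figure D5:**
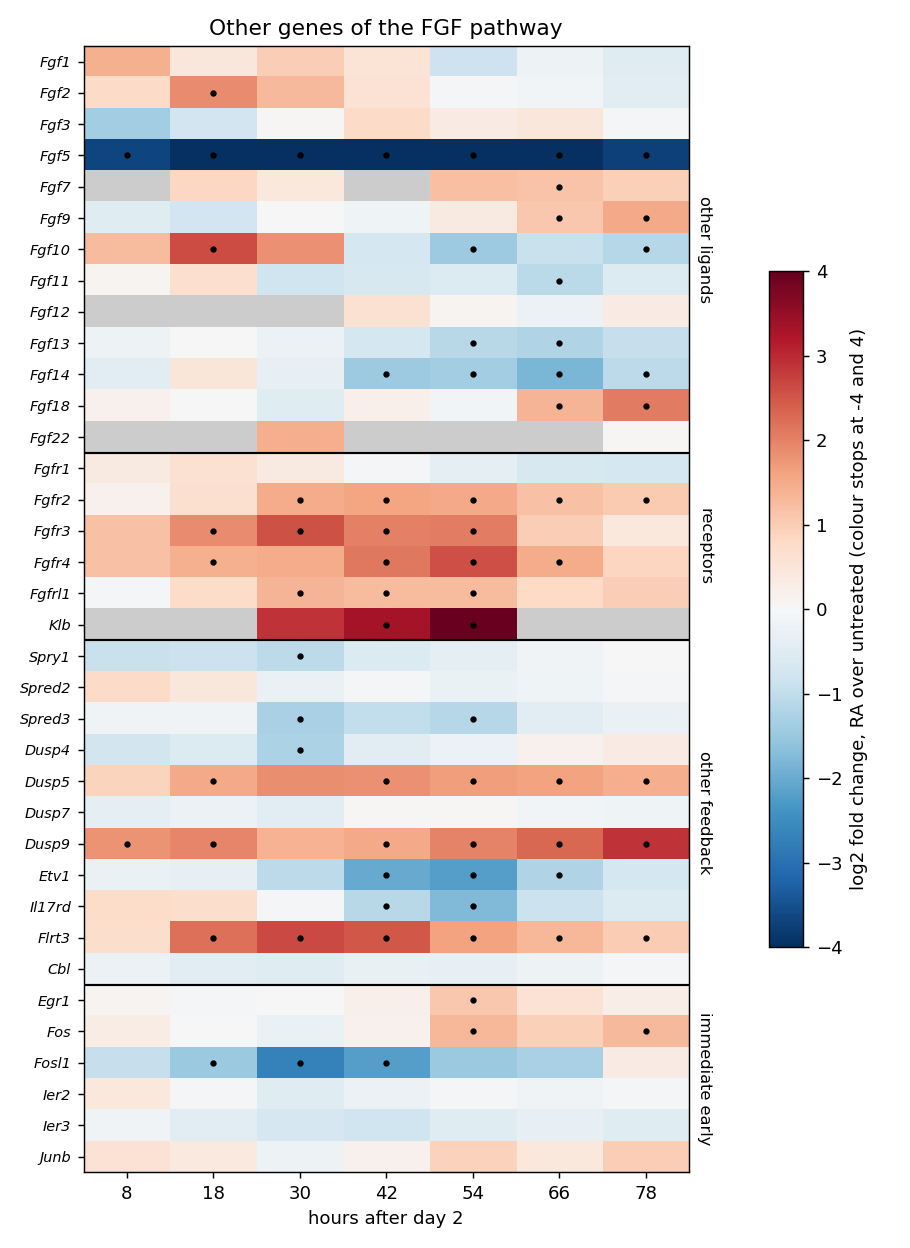
Log2 fold change of RA-treated over untreated organoids for the other FGF pathway genes that were tested, by hours after day 2, with red for higher and blue for lower with RA, grey where a gene was not tested and a black dot where it was called. Fgf5 was called lower at all 7 times, and the receptors Fgfr2, Fgfr3 and Fgfr4 were called higher at 4 or more of them.

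The rest of the pathway was counted by lists that were chosen with earlier results known. Of 18 other FGF ligands, 11 were tested at 18 h, of which 1 was called lower and 2 higher, beside 2.76% and 8.17% of all genes. Fgf5, a ligand of primed pluripotent cells, was at a mean of 3.33 CPM with RA and 64.2 CPM untreated (log2FC -4.26, adjusted p = 1.4e-12) and was still lower at 78 h (1.47 against 20.001 CPM, log2FC -3.73). Fgf2 and Fgf10 were called higher at 18 h, with Fgf10 at 2.31 against 0.366 CPM. At 78 h 13 were tested, 3 were called lower (Fgf5, Fgf10 and Fgf14) and 2 higher (Fgf9 and Fgf18, with Fgf18 at 1.83 against 0.432 CPM). The shares over all genes were 4.03% lower and 7.66% higher. The calls of Fgf10 (log2FC -1.14) and Fgf14 (log2FC -1.05) at 78 h were lost without RA replicate 3 (-0.87 and -0.98), and that of Fgf10 also without untreated replicate 1 (-1.15, adjusted p = 0.017) or 2 (-1.02, adjusted p = 0.029). Fgf10 was thus called higher with RA at the early time and lower at the late one.

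Among 7 receptor genes, 5 were tested at 18 h and all 5 rose with RA, 2 of them by enough to be called, Fgfr3 (6.67 against 1.84 CPM, log2FC 1.88) and Fgfr4 (4.15 against 1.52 CPM, log2FC 1.42). The median log2FC of the 5 was 0.73, against 0.02 over all genes, of which 8.17% were called higher. Fgfr1 was at 254 CPM with RA and 169 CPM untreated at 18 h and at 197 and 319 CPM at 78 h, where it fell (log2FC -0.70, adjusted p = 1.4e-06). Fgfr2 was the 1 receptor called higher at 78 h (112 against 53.5 CPM, log2FC 1.06), a call lost without untreated replicate 2 (log2FC 0.99). At that time 7.66% of all genes were called higher.

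Of 20 genes of the kinase cascade tested at 18 h, 1 was called higher and 0 lower, beside 8.17% and 2.76% of all genes, with 4 higher and 13 lower at an unadjusted p under 0.05 and the same counts of calls by DESeq2. The called gene was the scaffold gene Ksr1 (21.6 against 10.1 CPM, log2FC 1.11). The list's median log2FC was -0.15. At 78 h edgeR and DESeq2 called 0, with 10 higher and 5 lower at an unadjusted p under 0.05. Of 12 other feedback genes, 11 were tested at each time, and at 18 h and at 78 h 3 were called higher and 0 were called lower by edgeR or DESeq2, with 6 and 4 lower at an unadjusted p under 0.05. The shares of all genes called higher at these times were 8.17% and 7.66%, and of those called lower 2.76% and 4.03%. At both times the genes called higher were Dusp9, a phosphatase of ERK (199 against 51.4 CPM at 18 h, log2FC 1.96, and 124 against 16.7 CPM at 78 h, log2FC 2.90), Dusp5, a nuclear ERK phosphatase (24.3 against 8.53 CPM at 18 h, log2FC 1.53), and Flrt3, a membrane protein that interacts with FGF receptors (30.5 against 6.68 CPM at 18 h, log2FC 2.21). The call of Flrt3 at 78 h (log2FC 1.02) was lost without untreated replicate 1 (0.95) or 2 (0.99) or RA replicate 2 (1.00). Between these times other genes of the list were called lower with RA, named here after their values were seen. At 30 h they were Spry1 (log2FC -1.03), Spred3 (-1.30) and Dusp4 (-1.26), at 42 h Etv1 (-2.01) and Il17rd (-1.11), at 54 h Spred3 (-1.16), Etv1 (-2.21) and Il17rd (-1.78), and at 66 h Etv1 (-1.21). Over all genes 2.48%, 4.96%, 5.99% and 4.44% were called lower at these 4 times. The call of Spry1 was lost without each library but RA replicate 2 (adjusted p up to 0.031), and that of Il17rd at 42 h without RA replicate 1 (-0.87). The phosphatase gene Dusp4 also fell at 8 h (-0.75, adjusted p = 0.0068) and 18 h (-0.56, adjusted p = 7.6e-06) and rose at 78 h (0.33, adjusted p = 0.001), and Dusp7 was at -0.36 at 8 h and -0.23 at 18 h, without passing the test. Spry1 fell at 8 h (-0.88) and 18 h (-0.85), and Etv1 (-0.34) and Cbl (-0.44) fell at 18 h. At 8 h Dusp9 was called higher (1.80), beside 1.26% of all genes, and Dusp5 (0.89), Spred2 (0.76) and Il17rd (0.73) rose. Spred2 (0.44) and Il17rd (0.71) also rose at 18 h. Dusp5, Dusp9 and Flrt3 were called higher at 42 h, 54 h and 66 h, beside 7.49%, 7.17% and 7.06% of all genes.

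Of 6 immediate early genes, which respond to ERK within minutes in many cells, 1 was called lower at 18 h, Fosl1 (0.485 against 1.36 CPM), and 1 higher at 78 h, Fos (2.75 against 1.12 CPM, log2FC 1.31). Over all genes 2.76% were called lower at 18 h and 7.66% higher at 78 h. Egr1 was at 8.34 and 8.82 CPM at 18 h and had a log2FC of -0.08 (adjusted p = 0.5).

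Some markers of other states also differed between the arms. The summed level of 4 pluripotency markers was 1302 to 1363 CPM untreated and 657 to 719 CPM with RA at 18 h, 733 to 798 against 100.4 to 197 CPM at 54 h and 412 to 504 against 208 to 376 CPM at 78 h. The 4 genes did not move together, and none was at 0. Pou5f1 and Utf1 were called lower at 18 h and 54 h, and at 78 h only Pou5f1 was. Nanog and Zfp42 were not called at any time. Nanog rose at 18 h (log2FC 0.24, adjusted p = 0.0043) and fell at 54 h (-0.79, adjusted p = 0.0036). Zfp42 rose at 66 h (0.71, adjusted p = 4.9e-05). The sum of 4 endoderm markers was at most 3.45 CPM in untreated and day 2 libraries and 6.02 to 22.1 CPM with RA, and Sox17 was at 8.43 against 0.226 CPM at 18 h. In the RA-treated libraries at 30 h Sox17 ranged from 0.556 to 11.3 CPM. Among these markers Gata4 was called higher only at 18 h (log2FC 1.05) and had a log2FC of -0.16 at 78 h. In bulk samples fewer cells of a type and less RNA per cell cannot be told apart. Of 5 midbrain and hindbrain markers 3 were tested at 18 h and 1 was called higher, Pax5, and at 78 h 3 of 5 were called higher, En2, Pax2 and Wnt1. Between these times they went in both directions. Pax5 was called lower with RA at 42 h, 54 h and 66 h (log2FC -1.57, -2.58 and -1.12). At the same times Pax2 (3.15, 1.81 and 1.98) and Wnt1 were called higher, and at 66 h so was En2 (1.67). En1 was not called at any time. Of 3 neuronal markers 2 were called higher at 78 h, and of 3 tested mesoderm markers 2 were called lower at 18 h. Over all genes 8.17% were called higher and 2.76% lower at 18 h, and 7.66% higher at 78 h. The part of such marker shifts in the members' values was not tested.

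Replicates of the RA arm also differed together. Pou5f1 was at 27.8, 51.0 and 54.9 CPM in the RA-treated libraries at 54 h and at 119, 98.9 and 63.2 CPM at 78 h, in the same order as Fgf4 in both. Over the 21 RA-treated libraries, the deviation of log2(CPM + 1) from the mean of its condition correlated with that of Pou5f1 with r = 0.89 for Fgf4, 0.90 for Fgf15, 0.89 for Etv5, 0.88 for Spry2, 0.85 for Spry4 and 0.81 for Etv4. It was 0.60 for Fgf17, 0.49 for Dusp6, 0.25 for Spred1 and 0.18 for Fgf8. In the 21 untreated libraries r was 0.86 for Fgf4, -0.10 for Fgf15, -0.51 for Spred1 and 0.046 to 0.56 for the others. These are descriptions across libraries that share conditions and normalisation.

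The ligands differed in which genes resembled them most. Over the 15 condition means of log2(CPM + 1), with 14296 genes compared, Fgf4 was most like Platr10 (r = 0.987), Tdh (0.986) and Rab25 (0.984), and Fgf15 was most like Car14 (0.987), Slit3 (0.951) and Abhd17c (0.944). Fgf17 was most like Setd4 (0.985), Tert (0.977) and A230050P20Rik (0.976), and the low Fgf8 was most like Angpt1 (0.925), Atp2b4 (0.911) and Gm15417 (0.910). Over the 45 single libraries Tdh, Angpt1, Car14 and Setd4 were the most alike gene of Fgf4, Fgf8, Fgf15 and Fgf17.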

How the data were processed

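RNA was sequenced from 45 organoid libraries (poly(A) selection, 75-base single-end reads). The authors trimmed reads with Trim Galore 0.5.0, removed abundant sequences with Bowtie 2 2.3.4.1, aligned to GRCm38 with STAR, counted reads with featureCounts (Subread 1.6.2) and deposited these counts unnormalised. Columns were assigned to samples through the library numbers in the titles, and 0 columns were left unmapped. Symbols and positions came from GENCODE M21 (GRCm38), which matched 54409 of 54532 identifiers. The members, the gene lists and the named genes (all members, list genes called at 18 h or 78 h up to 6 per list, the 3 genes most like each ligand with a mean of at least 1 CPM, Cyp26a1 and Rarb) were chosen with earlier results of these data known.

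From the counts, edgeR 4.0.16 in R 4.3.3 was run separately on the libraries of each comparison (TMM; filterByExpr with a minimum count of 10 and a minimum total of 15; glmQLFit and glmQLFTest), and p-values were adjusted over all genes tested. Levels are TMM-normalised CPM over 45 libraries. With 3 against 3 samples an exact permutation test of a single gene cannot go below p = 0.1, so none was used. The 45 pairs of replicates differed by more than sampling noise, the lowest mean chi-square over genes being 1.97. Same-numbered replicates were taken as pairs where the correlation of their deviations exceeded 0.1 in all 3 pairs, which held between the arms at 66 h (0.52, 0.21 and 0.25). At 30 h, 54 h and 78 h all 3 were positive but the lowest were 0.088, 0.044 and 0.023. As alternatives, DESeq2 1.42.0, scaling by library totals or RLE, other filters, one fit of all 45 libraries, a replicate block and the omission of each library were tried. The treatment of multi-mapping reads is not given in the sources used here.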

Additional observations from a re-analysis of the deposited data

Results flagged for a closer look

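The RA effect, as a log2 fold change of RA-treated over untreated organoids, differed between times for 17 pairs of a member and a contrast by the interaction test of edgeR. At 8 h minus 18 h the difference was 1.40 for Fgf4 and 0.63 for Spry2. At 30 h minus 18 h it was -2.43 for Etv4, -2.11 for Spry4 and -1.46 for Fgf17. At 78 h minus 18 h it was 1.56 for Fgf15, 1.52 for Fgf4, 0.77 for Etv5, -0.39 for Dusp6, -0.98 for Fgf17 and -1.01 for Spred1. At 78 h minus 42 h, a contrast added after the values were seen, it was 2.12 for Fgf4, 1.61 for Spry4, 1.53 for Etv4, 1.31 for Etv5, 1.18 for Fgf15 and 1.01 for Spry2. The 18 h and 42 h libraries are of the earlier series and the 78 h libraries of the later, so the differences that involve 78 h also go with the series. All 30 h libraries but RA replicate 2 were low in Y-chromosome genes, unlike those at 18 h. RA 30 h replicates 2 and 3 are of the later series, so 30 h minus 18 h cannot be fully told apart from these either. Groups of 3 libraries are too small for a test of single libraries that stand apart.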

How the results depend on the processing

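Of 2424 recomputed log2 fold changes of members and named list genes, 2262 kept their direction and their side of the threshold, and in the 49 that changed sign the gene was not called in the reported fit. The number of members called lower at 8 h went from 0 to 1 with no filter on low counts, by DESeq2 and in a joint fit of the 45 libraries, and was 0 to 2 with a library left out. With one fit of all 45 libraries, 1 member (Fgf8) was called higher at 30 h, 0 rather than 1 were called higher in untreated organoids at 18 h against day 2, and 0, 7 and 3 rather than 2, 3 and 6 were called in the differences 8 h minus 18 h, 30 h minus 18 h and 78 h minus 18 h. The difference 8 h minus 18 h had 1 call by library totals, and 30 h minus 18 h had 7 with no filter and 6 by DESeq2. Leaving out a library gave 0 to 1 members called higher in untreated organoids at 18 h against day 2, 0 to 3 called at 8 h minus 18 h (0 without each untreated 8 h library in turn, untreated 18 h replicate 3 or RA 18 h replicate 3), 2 to 9 at 30 h minus 18 h (9 without RA 30 h replicate 2) and 3 to 6 at 78 h minus 18 h (3 without untreated 18 h replicate 1 or RA 18 h replicate 1). Over all genes, leaving out a library gave 11 to 456 calls at 8 h minus 18 h and 309 to 2146 at 30 h minus 18 h. At 78 h minus 18 h it gave 4130 to 5149. The cause of these changes was not tested. Of 53 member results between the arms with an adjusted p under 0.01, 40 kept it under every alternative. The other 13 were Fgf4, Spry2, Etv5 and Spred1 at 8 h, Fgf17 and Dusp6 at 18 h (0.040 and 0.022 in one fit of all 45), Dusp6 at 54 h, Fgf8, Fgf15, Dusp6 and Spry4 at 66 h, and Fgf4 and Fgf15 at 78 h (Fgf15 0.021 in one fit of all 45).

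With the replicate block, the adjusted p at 8 h was 0.021 for Fgf4, 0.016 for Spry2, 0.014 for Etv5 and 0.022 for Spred1, 0 rather than 2 members were called at 8 h minus 18 h, Spry2 was called lower at 78 h (log2FC -1.01), Fgf17 lost its call at 30 h minus 18 h (adjusted p = 0.015) and 78 h minus 18 h (adjusted p = 0.011), and Spry4 in RA 18 h against day 2 was at -0.0016. At 66 h, the time at which numbers pair the samples, the block changed no call of a member (Fgf4 log2FC -1.26), and it changed no other call of a member.

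Signs near 0 changed as follows. By library totals Dusp6 was at 0.011 at 8 h and 0.010 at 78 h, Spred1 at 0.028 at 30 h and 0.055 in RA 78 h against day 2, Etv4 at 0.072 in RA 18 h against day 2 and Spry4 at -0.036 in 78 h minus 18 h. Spry4 at 18 h was at -0.0087 by RLE, -0.00041 with no filter and -0.018 by DESeq2, in RA 18 h against day 2 it was at -0.0093 by RLE, -0.018 by DESeq2 and -0.0051 in one fit of all 45, and in untreated 18 h against day 2 at -0.0067 in one fit of all 45. Dusp6 at 78 h was at 0.0045 with no filter. With 1 library left out, the log2FC ranged from -0.31 to 0.49 for Fgf17 and -0.11 to 0.094 for Dusp6 at 8 h, -0.050 to 0.085 for Spry4 at 18 h, -0.23 to 0.043 for Spred1 at 30 h and -0.055 to 0.085 for Dusp6 at 78 h. Against day 2 it ranged from -0.12 to 0.14 for Fgf17, -0.022 to 0.074 for Spry4 and -0.0079 to 0.11 for Etv4 in untreated 18 h, from -0.058 to 0.079 for Spry4 in RA 18 h and from -0.17 to 0.41 for Fgf8 in RA 78 h. The difference 8 h minus 18 h ranged from -0.43 to 0.70 for Fgf8 and -0.19 to 0.61 for Fgf15, 78 h minus 18 h from -0.16 to 0.69 for Fgf8 and -0.036 to 0.16 for Spry4, and 78 h minus 42 h from -0.22 to 0.35 for Fgf8 and -0.018 to 0.72 for Fgf17.

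Library totals moved the median log2FC of all genes by 0.12 at 18 h, 0.14 at 30 h, 0.13 in untreated 78 h, 0.20 in RA 18 h and 0.16 in RA 78 h against day 2. By that scaling Spred1 at 54 h (log2FC -0.995), Fgf17 in untreated 78 h (-0.92) and Spry2 in RA 18 h against day 2 (-0.85) lost their calls. Of all genes tested, 200 were called higher and 85 lower at 8 h, 365 and 200 by DESeq2, 347 and 190 with no filter, 511 and 298 in one fit of all 45, 90 and 35 with the replicate block, and 606 and 227 without RA 8 h replicate 3. At 30 h 994 were higher and 412 lower, 1973 and 691 in one fit of all 45 and 1508 and 764 without RA replicate 2, and 739 were lower with earlier library numbers only. At least 10 counts in every library left 2568 rather than 3867 called higher in RA 78 h against day 2. All genes called numbered 58 at 8 h minus 18 h (348 with no filter, 313 by DESeq2, 227 in one fit of all 45, 0 with the replicate block), 538 at 30 h minus 18 h (860, 1042, 1315 and 318) and 2224 at 78 h minus 42 h (1390 in one fit of all 45). Depth limits Fgf8 in particular.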
